A study of Mus musculus with 10 samples.

Results

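The genes described here belong to the ATF4 pathway and the mitochondrial stress response. They are Atf3, Atf4, Atf5, Ddit3, Asns, Trib3, Chac1, Psat1, Gdf15 and Hspa5, chosen by name as 10 known genes of this response, out of 54532 genes in the deposited table, where they fill 11 lines because Ddit3 stands on 2. Kidneys of wild-type male C57BL/6 mice were obstructed by unilateral ureteral obstruction (UUO), in which the left ureter is tied off at a pair of sites, at 8 weeks of age, and were collected 14 days later. Dimethyl malonate (DMM), a malonate ester that inhibits succinate dehydrogenase (SDH) of the mitochondrial respiratory chain, was given to 5 mice by intraperitoneal injection at 40 mg/kg every other day, and 5 control mice received PBS. Both groups carried the obstruction, so that no unobstructed kidney was compared, and each mouse gave 1 bulk RNA-seq library of whole kidney tissue.

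In the integrated stress response, kinases that sense amino acid shortage, heme loss, viral RNA or unfolded protein phosphorylate the translation factor eIF2. General translation then slows while the mRNA of ATF4 is translated more, and ATF4 switches on genes of amino acid supply, redox balance and cell death. Mitochondrial damage reaches the same pathway through the protease OMA1 and the protein DELE1, and tubule cells, which depend on mitochondria, use this response under injury. ATF4 is controlled largely at translation, which mRNA levels do not show.

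Total counts per library were between 15722527 and 19475833. The group means in the authors' table could be rebuilt from 8 of the libraries, and control replicate 3 and DMM replicate 1 entered them with weight 0. Results are therefore given over all 10 libraries and over these 8, and the sets share 8 libraries. A reason for the omission was not given in the sources used here. DMM replicate 4 also stood apart from the other libraries. It had 20029 detected genes against 22898 to 24083 in the other 9, a TMM scaling factor of 0.852 against 0.981 to 1.05, and 5.62% of its counts on mitochondrial genes against 1.97% to 4.39%. Its counts were tilted by base composition. Among the 3298 tested genes of highest GC content (55.3% to 86.2%), the median log2 normalised count of DMM replicate 4 relative to the mean of 10 libraries was -0.65, and among the 3299 of lowest GC content (22.1% to 43.8%) it was 0.52. In the other 9 libraries these medians were between 0.04 and 0.10 and between -0.10 and -0.01. By length of the longest transcript, the same median was -0.60 in the shortest genes and 0.57 in the longest. Of the 10 members, 5 (Atf4, Atf5, Trib3, Chac1 and Gdf15) lay among the genes of highest GC content. By transcript length, 3 (Ddit3, Chac1 and Gdf15) lay in the shortest of the 5 bins. Another 6 lay in the next bin, where the median of DMM replicate 4 was -0.37. DMM replicate 4 was the lowest of 10 libraries for 7 members and the highest for 3, so member results below are also given without it, and lists are given by their counts without it. A correction for GC content and length, chosen after seeing the data, was run as an alternative. After it, 0 members were called over all 10 libraries and 1, Ddit3, over the 8. Corrected fold changes are given below for some genes, but among the members only for Ddit3 and not for the 5 of highest GC content. Beyond that correction, the part of RNA quality or base composition in these values was not tested.

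**Figure D1:**
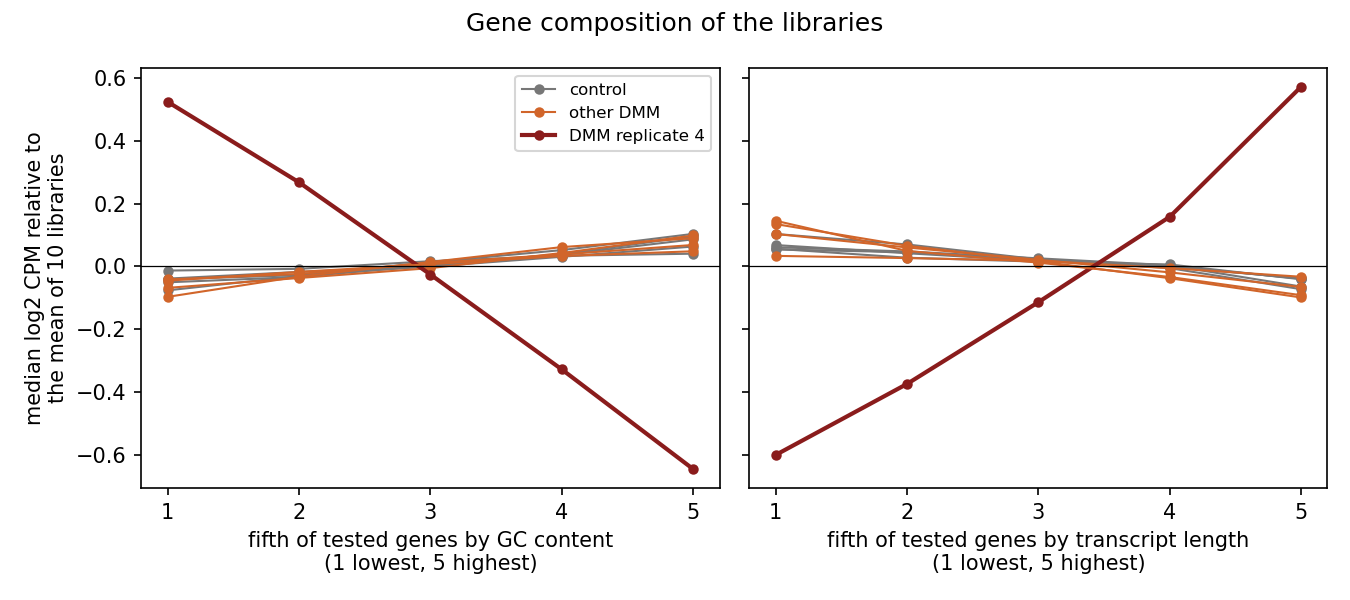
Median log2 normalised count relative to the mean of 10 libraries (vertical axis), for tested genes in 5 bins of equal size by GC content (left) or by length of the longest transcript (right); each line is 1 library. DMM replicate 4 runs from 0.52 to -0.65 across the GC bins, whereas the other 9 libraries stay between -0.10 and 0.10.

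Kidney identity was clear in the marker genes. The phosphate transporter Slc34a1 had a mean of 127 ± 108 (SD, n = 5) FPKM in control and 191 ± 100.4 (SD, n = 5) FPKM in DMM kidneys, and the injury marker Spp1 had 7753 ± 1143 and 9530.4 ± 1128 FPKM. All 11 proximal tubule markers were tested and none was at 0. Their summed normalised count, in CPM (each library's counts scaled to the same total, with TMM factors), was 2031, 2046, 4979, 871 and 1578 CPM in control replicates 1 to 5 and 1447, 3920.3, 4869, 4586 and 5668 CPM in DMM replicates 1 to 5. Control replicate 3 thus lay among the DMM libraries, and DMM replicate 1 lay among the other controls. The 12 genes of the interferon response list summed to 3909, 2371, 2786, 3909.9 and 3751 CPM in control and 2962, 413, 373, 369.9 and 311 CPM in DMM replicates, with Ifit3 the most abundant per length. Here DMM replicate 1 stood within the controls and the other 4 DMM libraries stood far below them. The 6 macrophage markers, led by C1qb, summed to 1185, 1056, 949, 1107 and 1269.9 CPM in control and 987, 703, 589, 486 and 605 CPM in DMM kidneys. The 5 T cell markers, led by Cd4, summed to 36.2, 37.9, 36.5, 31.0 and 54.0 CPM in control and 32.9, 25.6, 11.4, 15.7 and 15.3 CPM in DMM kidneys. Because these libraries are of whole tissue, fewer cells of a type and less RNA per cell cannot be told apart.

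Calls needed a fold change above 1.5 together with an adjusted p under 0.05 (edgeR's quasi-likelihood test, Benjamini-Hochberg). All 10 members were tested in both sets. Over all 10 libraries, 0 of the 10 members were called, as were 0 of 16505 genes (0%); DESeq2 called 45 genes and 0 members. By the fold change limit and p without adjustment, 0 members were higher and 0 lower, against 1.91% of all genes higher and 4.11% lower. By the same limits with DMM replicate 4 alone left out, 2 members were higher, Gdf15 and Chac1, and 0 lower, against 1.86% and 4.27% of all genes. Over the 8 libraries, 0 of the 10 members were called by edgeR, against 6.3% of 16550 genes (2.73% higher and 3.56% lower), and before adjustment 0 members passed higher, against 6.45% of all genes, and 1 lower, Ddit3, against 7.24%. DESeq2 called 1 member in that set, Ddit3, and 1659 of 20165 genes, 910 of them lower. Without DMM replicate 4 as well, 7 libraries gave 1 member called higher, Gdf15, and 1 called lower, Ddit3, against 6.71% and 7.61% of all genes. The median log2 fold change of the members was -0.11 over all 10 libraries and -0.14 over 8, and that of all genes tested was 0.02 and 0.02.

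**Figure D2:**
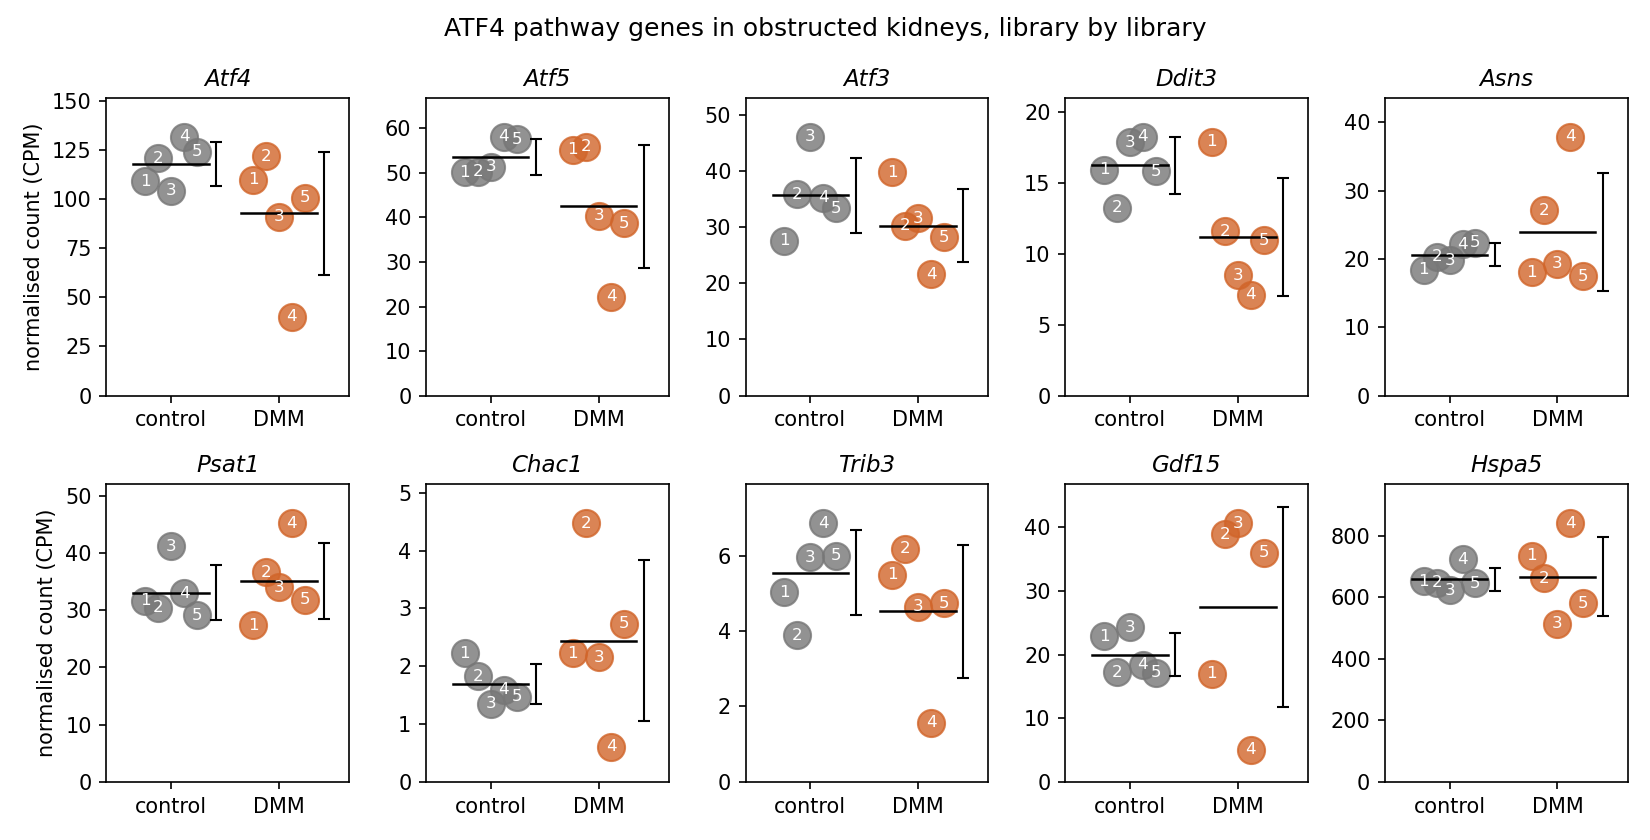
Normalised count (CPM, TMM scaling, vertical axis from 0) of each member in the 5 control and 5 DMM libraries; numbers in the points are replicate numbers, horizontal lines are means and bars are the SD. DMM replicate 4 is the lowest point for 7 members, and Gdf15 in DMM replicates 2, 3 and 5 lies between 36.0 and 40.7 CPM, above every control.

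Ddit3 encodes CHOP, the transcription factor that ATF4 induces and that promotes cell death under lasting stress. Its normalised counts were 15.9, 13.2, 17.9, 18.2 and 15.8 CPM in control replicates 1 to 5 and 17.9, 11.6, 8.50, 7.13 and 10.9 CPM in DMM replicates 1 to 5. DMM replicates 2 to 5 all lay below every control, and DMM replicate 1 lay within the control range. Over the 8 libraries the groups therefore did not overlap, which held for 10.7% of all genes in the same direction, and for 18.5% over the 7 libraries without DMM replicate 4. In the other direction 0 members were without overlap over the 8 libraries, against 9.46% of all genes. The log2 fold change was -0.73 over the 8 libraries (standard error 0.19, adjusted p = 0.0542, edgeR) and -0.53 over all 10 (standard error 0.23, adjusted p = 0.435, edgeR). It passed the adjusted threshold over 8 libraries with DESeq2 (adjusted p = 0.0106), in the 7 libraries without DMM replicate 4 (log2 fold change -0.61, adjusted p = 0.0157, edgeR) and after a correction for GC content and length that was chosen after seeing the data (-0.71, adjusted p = 0.0182, edgeR). Over all alternatives for the 8 libraries the adjusted p of Ddit3 ranged from 0.0106 to 0.164. With DMM replicate 1 alone left out of all 10, Ddit3 was called lower (log2 fold change -0.77, adjusted p = 0.0475, edgeR), as were 436 of 16760 genes. With DMM replicate 4 alone left out it was not called (log2 fold change -0.41, adjusted p = 0.315, edgeR). Over the alternatives for all 10 libraries the adjusted p of Ddit3 ranged from 0.0475 to 0.745. The lower Ddit3 libraries were also those with low interferon genes, and the part of either in the other was not tested. The symbol stands on 2 rows of the table; the values are those of ENSMUSG00000025408 (mm10, chromosome 10, 127290774 to 127296288), while ENSMUSG00000116429, nested in it, had 0 counts in all libraries. The gene overlaps Mars by 68 bp on the opposite strand.

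Gdf15 encodes a secreted stress cytokine that rises in blood in mitochondrial disease and in kidney injury. Its normalised counts were 22.9, 17.2, 24.3, 18.4 and 17.2 CPM in control replicates 1 to 5 and 17.0, 38.9, 40.7, 5.07 and 36.0 CPM in DMM replicates 1 to 5. DMM replicates 2, 3 and 5 were above every control, and DMM replicates 1 and 4 were below every control, so that the DMM group spanned the whole control range. The log2 fold change was 0.46 over all 10 libraries (standard error 0.43, adjusted p = 0.676, edgeR) and 0.67 over 8 (standard error 0.50, adjusted p = 0.489, edgeR). Without DMM replicate 4, the 3 DMM libraries left among the 8 had 38.6 ± 2.35 CPM (SD, n = 3) against 18.9 ± 2.72 CPM (SD, n = 4), and the log2 fold change was 1.02 (standard error 0.11, adjusted p = 0.000435, edgeR). The groups then did not overlap, as for 19.1% of all genes in that direction, but DMM replicates 1 and 4, the DMM libraries below every control, were the ones left out, so that this follows from the choice of libraries. When DMM replicate 4 alone was left out of all 10 libraries, the log2 fold change was 0.73 (adjusted p = 0.256, edgeR). Over the alternatives for all 10 libraries the log2 fold change of Gdf15 ranged from 0.20 to 0.73 (adjusted p from 0.256 to 0.871, edgeR or DESeq2). Over those for the 8 libraries it ranged from 0.49 to 1.02 (adjusted p from 0.000435 to 0.661, edgeR or DESeq2). In DMM replicate 4, Gdf15 stood 2.60 log2 units below the mean of the other DMM libraries, the widest gap of the 10 members, and its longest transcript has a GC content of 61.3%. The libraries with high Gdf15 were among those with high proximal tubule markers. Control replicate 3, with 4979 CPM of these markers, had 24.3 CPM of Gdf15, the highest of the controls. DMM replicate 1, with 1447 CPM of the markers, had 17.0 CPM of Gdf15, and DMM replicate 4, with 4586 CPM, had 5.07 CPM. The part of either library composition or cell type was not tested.

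Atf4, the central transcription factor of the response, was at 109, 121, 104, 132 and 124 CPM in control replicates 1 to 5 and 109.7, 122, 91.0, 40.2 and 100.5 CPM in DMM replicates 1 to 5. DMM replicates 1 and 2 lay within the control range, replicates 3 and 5 slightly under it, and replicate 4 far below. For Atf4 the log2 fold change was -0.35 over all 10 libraries (standard error 0.24, adjusted p = 0.571, edgeR) and -0.46 over 8 (standard error 0.28, adjusted p = 0.397, edgeR). With DMM replicate 4 left out it was -0.16 over 9 and -0.22 over 7 libraries (adjusted p = 0.406 and 0.156, edgeR). Among the transcription factors of the 10 members, Atf4 had the highest FPKM, with 49.6 ± 4.78 (SD, n = 5) in control kidneys.

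Atf5, a relative of ATF4 that drives the mitochondrial unfolded protein response, was at 50.2, 50.3, 51.4, 58.1 and 57.6 CPM in control and 55.2, 55.8, 40.4, 22.2 and 38.7 CPM in DMM replicates 1 to 5. DMM replicates 3, 4 and 5 were below every control and the other DMM libraries were within the controls. Its log2 fold change was -0.33 over all 10 libraries and -0.46 over 8 (adjusted p = 0.553 and 0.309, edgeR), and with DMM replicate 4 left out it was -0.17 over 9 and -0.27 over 7 (adjusted p = 0.459 and 0.162, edgeR). Atf5 overlaps Nup62 by 571 bp and Il4i1 by 272 bp on the opposite strand, and whether counting used the strand was not given in the sources used here. Atf3, an early stress transcription factor, was at 27.6, 35.8, 46.0, 35.2 and 33.4 CPM in control and 39.7, 30.3, 31.6, 21.6 and 28.1 CPM in DMM replicates 1 to 5. Control and DMM values overlapped, with DMM replicate 4 the lowest and control replicate 3 the highest. The log2 fold change of Atf3 was -0.24 over all 10 libraries and -0.24 over 8 (adjusted p = 0.594 and 0.401, edgeR), and with DMM replicate 4 left out it was -0.13 over 9 and -0.14 over 7.

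Of the members, the enzymes Asns, Psat1 and Chac1 were not called by edgeR over 10, 8 or 7 libraries. Asns, which makes asparagine, was at 18.4, 20.3, 19.8, 22.1 and 22.4 CPM in control and 18.0, 27.1, 19.3, 37.9 and 17.5 CPM in DMM replicates 1 to 5. DMM replicate 4 was the highest by a wide margin, replicate 2 was also above the controls, and replicates 1 and 5 were below them. For Asns the log2 fold change was 0.22 over all 10 libraries and 0.29 over 8 (adjusted p = 0.686 and 0.532, edgeR). It was -0.01 when DMM replicate 4 was left out of all 10 and 0.03 when it was left out of the 8. Psat1, an enzyme of serine synthesis, was at 31.7, 30.4, 41.2, 33.0 and 29.1 CPM in control and 27.4, 36.7, 34.1, 45.2 and 31.9 CPM in DMM replicates 1 to 5. The groups overlapped, and the highest value was again that of DMM replicate 4. Its log2 fold change was 0.08 over all 10 libraries and 0.25 over 8 (adjusted p = 0.830 and 0.316, edgeR), and without DMM replicate 4 it was -0.03 over 9 and 0.14 over 7.

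Chac1, which degrades glutathione, was the least abundant member. It was at 2.22, 1.82, 1.35, 1.60 and 1.47 CPM in control and 2.22, 4.47, 2.15, 0.604 and 2.74 CPM in DMM replicates 1 to 5, from 10 to 71 counts per library. DMM replicates 2 and 5 exceeded every control, replicate 4 was below every control, and the others overlapped them. For Chac1 the log2 fold change was 0.52 over all 10 libraries (standard error 0.41, adjusted p = 0.612, edgeR) and 0.48 over 8 (standard error 0.49, adjusted p = 0.621, edgeR). In the 7 libraries without DMM replicate 4 it was 0.80 (adjusted p = 0.0715, edgeR), and with DMM replicate 2 left out of the 8 instead it was 0.04 (adjusted p = 0.973, edgeR). With these libraries left out of all 10 in turn, the values were 0.77 and 0.19 (adjusted p = 0.256 and 0.842, edgeR). Trib3, a pseudokinase that restrains ATF4 and CHOP, was at 5.03, 3.88, 5.96, 6.86 and 6.0 CPM in control and 5.49, 6.18, 4.65, 1.57 and 4.74 CPM in DMM replicates 1 to 5. All DMM libraries except replicate 4 were within the control range. Its log2 fold change was -0.29 over all 10 libraries and -0.35 over 8 (adjusted p = 0.712 and 0.642, edgeR), and with DMM replicate 4 left out it was -0.08 over 9 and -0.07 over 7 (adjusted p = 0.830 and 0.842, edgeR).

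Hspa5 encodes BiP, the chief chaperone of the endoplasmic reticulum (ER). It was at 651, 647, 624, 724 and 646 CPM in control and 735, 662, 514, 841 and 581 CPM in DMM replicates 1 to 5. DMM replicates 1 and 4 were above every control and replicates 3 and 5 below every control. Hspa5 had log2 fold changes of 0.02 over all 10 libraries and -0.04 over 8 (adjusted p = 0.964 and 0.913, edgeR), and without DMM replicate 4 of -0.08 over 9 and -0.19 over 7 (adjusted p = 0.687 and 0.166, edgeR). The SD was 128 CPM among DMM against 38.0 CPM among control libraries (n = 5 each).

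**Figure D3:**
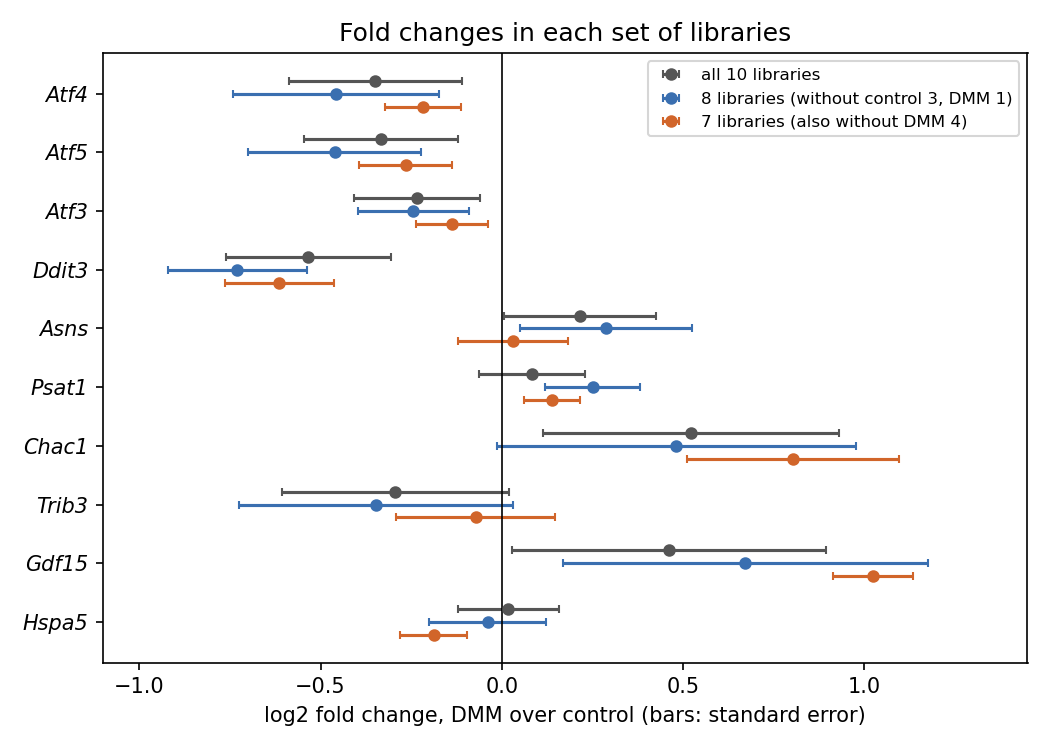
Log2 fold change of DMM over control for each member (horizontal axis), with its standard error as bars, over all 10 libraries, over 8 libraries and over 7 libraries without DMM replicate 4. Gdf15 goes from 0.46 to 0.67 and 1.02, and Ddit3 stays between -0.73 and -0.53.

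Per length, the members spanned a wide range of levels in control kidneys. Mean FPKM (SD, n = 5) was 155 ± 9.11 for Hspa5, 49.6 ± 4.78 for Atf4, 26.6 ± 2.05 for Atf5, 16.4 ± 3.06 for Atf3 and 10.7 ± 1.79 for Gdf15. Ddit3 followed with 9.40 ± 1.16, Psat1 with 7.72 ± 1.10, Asns with 7.49 ± 0.616, Trib3 with 2.59 ± 0.533 and Chac1 with 1.03 ± 0.208 FPKM. Neighbours from Atf3 to Asns in this order had overlapping ranges over the 5 control kidneys, whereas Hspa5, Atf4 and Atf5 were each separate from the next. In DMM kidneys Gdf15 (14.8 ± 8.46 FPKM) stood before Atf3 (13.97 ± 3.06 FPKM), with overlapping ranges.

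For the 3 members that varied most over the 10 libraries (Gdf15, Chac1 and Trib3), genes with the most similar pattern were sought among 14322 protein-coding genes, by the root-mean-square difference in centred log2 CPM over 10 libraries. Among the nearest to Gdf15 were Slc23a3 (0.19) and Ggnbp1 (0.19). Slc23a3 was at 5.80 to 10.01 CPM in controls and at 5.86, 11.8, 15.0, 2.36 and 12.9 CPM in DMM replicates 1 to 5, likewise lowest in DMM replicate 4. Chac1 was nearest to Cldn6, 1700001O22Rik and Pcp4l1 (0.30 each), and Trib3 to Gm12184 (0.15), Armc6 (0.17) and Rnf183 (0.17), all lowest in DMM replicate 4.

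Upstream of ATF4, 0 of the 17 genes of the list of eIF2 kinases and eIF2 control were called by edgeR over 10 or 8 libraries. The shares of all genes called were 0% and 6.3%. The median log2 fold change of the list was 0.08 and 0.06, against 0.02 and 0.02 for all genes. Over the 7 libraries without DMM replicate 4 as well, 0 were called higher and 1 lower, Eif2ak2, against 6.71% and 7.61% of all genes. Eif2ak2, the kinase PKR that senses viral RNA and is itself induced by interferon, was at 181, 172, 139, 192 and 199 CPM in control and 185, 59.998, 48.6, 147 and 45.3 CPM in DMM replicates 1 to 5. DMM replicates 2, 3 and 5 were far below the controls, while replicates 1 and 4 were within their range. The log2 fold change was -0.86 over all 10 libraries (adjusted p = 0.448, edgeR) and -1.31 over 8 (adjusted p = 0.0618, edgeR), and without DMM replicate 4 as well it fell by 1.86 on the log2 scale (adjusted p = 1.74e-05, edgeR). Over the 8 libraries it also passed with library size alone, with no filter on low counts, with DESeq2 and after the correction for GC content and length (adjusted p = 0.0254, 0.0273, 0.00388 and 0.00654; edgeR except for DESeq2).

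Downstream and parallel lists gave 0 calls over all 10 libraries. Over the 8 libraries, 0 of 11 tested ATF4 partners and feedback genes (Herpud1 most abundant per length; Fgf21 was not tested), 0 of 10 genes of serine, proline and one-carbon synthesis (Pycr3), 0 of 10 amino acid transporters (Slc3a2) and 0 of 12 cytosolic tRNA synthetases (Nars) were called by edgeR. Without adjustment, 1 gene higher and 1 lower passed in each of the first pair of lists and 0 in the others, against 6.45% and 7.24% of all genes. Without DMM replicate 4 as well, calls over the 7 libraries were 1 higher among ATF4 partners (Herpud1, log2 fold change 0.67, adjusted p = 0.00243, edgeR), 1 higher among transporters (Slc1a4, 0.59, adjusted p = 0.00276), and 2 higher and 1 lower among serine, proline and one-carbon genes, against 6.71% of all genes higher and 7.61% lower. The last were Shmt1 (0.88, adjusted p = 0.00177, edgeR), Shmt2 (0.68, adjusted p = 0.000177) and Mthfd1l (-0.71, adjusted p = 0.0143), which, like Slc1a4, were named after their values were seen. The tRNA synthetases still had 0 calls of 12 in edgeR. Their median log2 fold changes over 8 libraries were -0.30, -0.21, -0.01 and 0.10, against 0.02 for all genes. Of 23 genes of ER chaperones and unfolded protein response, led by Calr, 1 fell over 8 libraries, against 3.56% of all genes called lower: the luminal protein gene Sdf2l1, at 31.5, 27.4, 24.4, 33.0 and 29.0 CPM in control and 31.3, 19.4, 19.6, 23.3 and 13.8 CPM in DMM replicates 1 to 5 (log2 fold change -0.67, adjusted p = 0.0449, edgeR; -0.44 and 0.448 over all 10). Sdf2l1 passed over the 7 libraries without DMM replicate 4 as well, but not with any of the other 7 libraries left out of the 8 (log2 fold changes from -0.72 to -0.55), nor after the correction for GC content and length (-0.29, adjusted p = 0.663, edgeR). Derl3, a gene of ER-associated degradation, was at -0.90 on the log2 scale over all 10 libraries, with an unadjusted p of 0.0394 (adjusted p = 0.436, edgeR), and at -1.20 over 8 (adjusted p = 0.133, edgeR). With DMM replicate 4 also left out it was called lower (log2 fold change -1.71, adjusted p = 0.00484, edgeR). It was 1 of 2 calls among the 23 genes of its list over the 7 libraries, both lower, against 7.61% of all genes. The level of Derl3 was low, at 1.12 to 2.77 CPM in control and 0.486 to 1.63 CPM in DMM libraries.

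The list of mitochondrial chaperones and proteases had 2 of 12 genes called higher over 8 libraries and 0 lower, against 2.73% and 3.56% of all genes. The median of the 12 log2 fold changes was 0.38 against 0.02 for all genes. Over the 7 libraries without DMM replicate 4 as well, 1 of 12 was called higher and 0 lower, against 6.71% and 7.61% of all genes, and the median was 0.46 against -0.01 for all genes. Both sets leave out control replicate 3, with a list sum of 1638 CPM, and DMM replicate 1, with 1268 CPM. The other controls had 1192 to 1278 CPM and DMM replicates 2 to 5 had 1639 to 1750 CPM. Hspa9, the matrix chaperone mortalin and the most abundant of the list, was at 333, 324, 430.2, 301 and 323 CPM in control and 323, 449, 466, 572 and 484 CPM in DMM replicates 1 to 5. Control replicate 3 lay near the DMM libraries and DMM replicate 1 among the controls, in the same way as the proximal tubule markers. Hspa9 rose over the 8 libraries (log2 fold change 0.62, adjusted p = 0.0162, edgeR), as did the matrix protease subunit gene Clpx (0.63, adjusted p = 0.0145, edgeR), and over all 10 the values were 0.42 and 0.39 (adjusted p = 0.401 and 0.438, edgeR). Over those 7 libraries Clpx was called (log2 fold change 0.64, adjusted p = 0.00157, edgeR), and Hspa9 had an adjusted p of 0.000523 in edgeR with a log2 fold change of 0.54, under the fold threshold. The adjusted p of Hspa9 was 0.0575 without control replicate 2, 0.0619 without control replicate 4, 0.0656 without control replicate 5 and 0.0520 without DMM replicate 5 (edgeR, 7 libraries each), with log2 fold changes of 0.62, 0.59, 0.62 and 0.63. Clpx was at 0.0510 without control replicate 2 and 0.0547 without DMM replicate 5 (adjusted p, edgeR), with log2 fold changes of 0.64 and 0.58, and at a log2 fold change of 0.55 without control replicate 4. With library size alone as scaling, which moved the median of all genes from 0.02 to -0.09, Hspa9 and Clpx were at 0.50 and 0.51, under the fold threshold. Over the 8 libraries 5 of 11 proximal tubule markers were called higher, with log2 fold changes of 2.11 for Slc5a12, 1.73 for Cubn and 1.97 for Lrp2, and their part in the rise of Hspa9 and Clpx was not tested.

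Among general stress genes, 0 of 17 immediate-early genes and 0 of 6 heat shock genes were called by edgeR over 10 or 8 libraries, with 3 and 2 genes lower without adjustment over the 8, against 7.24% of all genes. DESeq2 called Nr4a1, Egr3 and Hspa1b lower over the 8 (adjusted p = 0.0258, 0.0374 and 0.0468), against 910 of 20165 genes. With DMM replicate 4 also left out, edgeR called Egr3 lower (log2 fold change -1.20, adjusted p = 0.0423) and 0 heat shock genes. Nr4a1 and Egr3 had log2 fold changes of -1.17 and -0.85 over all 10 libraries at unadjusted p of 0.0129 and 0.0259 (adjusted p = 0.385 and 0.408, edgeR), and Klf6 was the most abundant immediate-early gene. Hspa1a and Hspa1b, near-identical genes that may share reads, had -0.79 and -0.69 (adjusted p = 0.436 and 0.397, edgeR), and Hspa8 was the most abundant heat shock gene. In the interferon response list 12 of 12 genes fell over the 8 libraries, among them Oasl1 and Ifit2 with log2 fold changes of -3.46 and -2.82, and 0 of 12 were called over all 10 by edgeR, where 12 of 12 were lower without adjustment. Over the 7 libraries without DMM replicate 4 as well, 12 of 12 were called lower. The shares of all genes called lower were 3.56% over 8 and 7.61% over 7 libraries.

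Of the remaining marker lists over the 8 libraries, 3 of 4 tested loop and distal tubule markers (Slc12a1 1.53, Calb1 1.86 and Slc12a3 0.95, as log2 fold changes; Umod most abundant) and 1 of 4 collecting duct markers (Slc4a1 1.55; Aqp2 most abundant) were called higher, against 2.73% of all genes. Called lower by edgeR, against 3.56% of all genes, were 1 of 7 fibroblast and myofibroblast markers (Col1a2 -1.11; Col1a1 most abundant), 2 of 6 macrophage markers (Cd68 -0.97 and C1qb -1.35; C1qa, at -1.44, was not called) and 1 of 5 T cell markers (Cd4 -1.19; Cd3g, at -1.22, and Cd3d, at -1.37, were not called). C1qa passed with DESeq2 (-1.44, adjusted p = 0.00604) and after the correction for GC content and length (-1.35, adjusted p = 0.0032, edgeR). Injured tubule, endothelial (Cdh5), B and plasma cell (Cd79b) and neutrophil markers (S100a9) had 0 calls, and no marker list had a call over all 10 libraries in edgeR. Many of these calls did not hold with single libraries left out of the 8. C1qb was not called without any 1 of the 7 libraries other than DMM replicate 4 (adjusted p from 0.0556 to 0.138, edgeR), nor with library size alone as scaling (log2 fold change -1.43, adjusted p = 0.0563, edgeR). Slc12a1, Calb1, Slc12a3, Col1a2 and Cd4 each lost the call without control replicate 2, 4 or 5 or DMM replicate 3 or 5 (adjusted p from 0.0518 to 0.158, edgeR). Slc12a3 lost it also without DMM replicate 2, with library size alone (0.86, adjusted p = 0.0965, edgeR) and with no filter on low counts (0.94, adjusted p = 0.0514, edgeR). Slc4a1 lost it without control replicate 4 or DMM replicate 3, and Lrp2 without control replicate 5. With those libraries left out the log2 fold changes kept their sign, at 1.94 for Lrp2, 1.33 to 1.51 for Slc12a1, 1.67 to 1.91 for Calb1, 0.83 to 1.01 for Slc12a3 and 1.39 to 1.48 for Slc4a1. They were -1.14 to -0.95 for Col1a2, -1.54 to -1.28 for C1qb and -1.28 to -1.03 for Cd4. Without DMM replicate 4 as well, calls over the 7 libraries were higher for 10 of 11 proximal tubule, 4 of 4 loop and distal tubule and 3 of 4 collecting duct markers, against 6.71% of all genes. Calls were lower for 3 of 7 fibroblast, 4 of 6 macrophage, 3 of 5 T cell and 1 of 6 injured tubule markers, against 7.61% of all genes. The last was the adhesion molecule gene Vcam1 (log2 fold change -0.90, adjusted p = 0.00951, edgeR), named after its values were seen. Endothelial, B and plasma cell and neutrophil markers had 0 calls over the 7 libraries in edgeR.

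Promoter sequences from RefSeq (GRCm38.p6), from 250 bases before to 50 after each gene start, were matched for 10 of 10 members in 13 windows. The composite motif bound by ATF4 with C/EBP proteins, searched on both strands as TGATGNAAN, was in 3.95% of all 32851 windows and in those of Asns, Atf3, Chac1 and Trib3. The stricter TGATGCAA, whose matches lie within those of the former, was in 0.895% of windows and in those of Atf3 and Chac1. The cyclic AMP response element TGACGTCA was in 1.79% of windows and in 0 members, and the ER stress element was in 0.119% and in Hspa5. A match is a description of these letters and not a shown binding site. The 4 genes with the composite motif had log2 fold changes of 0.22 (Asns), -0.24 (Atf3), 0.52 (Chac1) and -0.29 (Trib3) over all 10 libraries. Their standard errors were 0.21, 0.17, 0.41 and 0.31, and none was called. With DMM replicate 4 left out of the 10, the log2 fold changes were -0.01, -0.13, 0.77 and -0.08. The sequences are shown because these members carry a known stress motif. Capitals mark the match, and each is read 5′ to 3′ on the strand of the gene.
Asns (chr6:7693214-7693242, minus strand, match in the 5′ UTR of the GENCODE annotation): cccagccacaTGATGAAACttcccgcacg
Atf3 (chr1:191183376-191183504, minus strand, match in an intron): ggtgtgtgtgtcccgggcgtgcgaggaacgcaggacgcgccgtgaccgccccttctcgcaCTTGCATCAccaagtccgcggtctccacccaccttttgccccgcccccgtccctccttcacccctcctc
Chac1 (chr2:119350992-119351116, plus strand, match upstream of the gene): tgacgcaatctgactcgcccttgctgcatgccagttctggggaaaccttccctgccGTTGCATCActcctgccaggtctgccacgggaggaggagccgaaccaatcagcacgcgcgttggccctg
Trib3 (chr2:152344029-152344057, minus strand, match just before the GENCODE start): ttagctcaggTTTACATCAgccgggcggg
Hspa5 (chr2:34772020-34772048, plus strand, ER stress element, match in the 5′ UTR of the GENCODE annotation): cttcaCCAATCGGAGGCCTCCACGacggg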

How the data were processed

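The authors aligned the reads to mouse mm10, with HISAT2 2.0.5 named in the submitters' processing notes, and deposited the raw count of reads on each gene. The counting tool, annotation release and use of strand are not given in the sources used here. The authors also deposited FPKM values and gene lengths, used for levels per length, and group means as a normalized signal, used to find which libraries they hold. Their fold changes, p-values and adjusted p-values for DMM against control were not used.

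Members and gene lists were chosen with earlier results of these data known. Counts were scaled by TMM, filtered by filterByExpr and tested by edgeR 4.0.16 (quasi-likelihood F test, Benjamini-Hochberg adjustment over all genes tested); DESeq2 1.42.0 was an alternative. Standard errors are the log2 fold change divided by the root of its F value, and log2 CPM used a prior count of 2. From each list the text names genes called over 8 libraries, or past unadjusted p under 0.05 and a fold change above 1.5 over all 10, at most the 3 of smallest p over 8 libraries, and the most abundant gene; the 3 genes nearest in pattern were named for the 3 most variable members, and promoters where a motif was found. Some genes that this rule names are not reported here. GC content and length came from the longest GENCODE transcript of each gene. The steps were tested on simulated counts. Alternatives were other scalings, filters, DESeq2, the replicate number as a block, and each library left out; the correction for GC content and length was chosen after seeing the data. Molecular identifiers are not named in the sources used here, so counts may not be independent molecules.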

Additional observations from a re-analysis of the deposited data

Results flagged for a closer look

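In 66 groups of 5 libraries (members, library measures and summed lists), 15 had a library at the top or bottom whose gap to its nearest neighbour was above 0.71 of the group's whole range. Chance gives such a gap in about 1 in 20 groups. Hspa5 was at 724 CPM in control replicate 4, against 624 to 651 CPM in the other controls. DMM replicate 4 stood apart with 20029 detected genes, a scaling factor of 0.852, and sums of 1524 CPM for eIF2 kinases and eIF2 control, 1337 CPM for tRNA synthetases, 949 CPM for immediate-early genes and 97.1 CPM for neutrophil markers. Control replicate 3 stood apart with 3.66% of counts on mitochondrial genes, and sums of 1638 CPM for mitochondrial chaperones and proteases, 4979 CPM for proximal tubule markers and 232 CPM for collecting duct markers. DMM replicate 1 stood apart with 1268 CPM for mitochondrial chaperones and proteases and 2962 CPM for the interferon response list, and control replicate 4 with 28.2 CPM for B and plasma cell markers and 108 CPM for neutrophil markers.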

How the results depend on the processing

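Over all 10 libraries the count of genes called was 0 in edgeR and 45 in DESeq2; without single libraries it was from 0 to 486, the highest without DMM replicate 1. Genes past the unadjusted threshold numbered 993 in edgeR, 1792 with no filter on low counts (more genes tested), 1525 in DESeq2, and from 745 to 1799 without single libraries. Over the 8 libraries edgeR called 1042 genes (452 higher and 590 lower) and DESeq2 1659, and without single libraries the count was from 407 (control replicate 5) to 2410 (DMM replicate 4). With library size alone the split was 276 higher and 700 lower, and with GC content and length corrected, an alternative chosen after seeing the data, it was 787 higher and 689 lower. Members called over the 8 numbered 0 in edgeR, 1 in DESeq2, 1 after that correction, and from 0 to 2 without single libraries.

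Some member log2 fold changes near 0 turned sign, and the cause was not tested. Over all 10 libraries Hspa5 was at 0.02, and at -0.076 with library size alone, -0.0054 with no filter on low counts and -0.0015 with the replicate block, and Psat1 was at 0.08, and at -0.012 with library size alone. Without single libraries of the 10, Asns ranged from -0.010 to 0.31, Hspa5 from -0.079 to 0.098 and Psat1 from -0.025 to 0.17. Without single libraries of the 8, Hspa5 ranged from -0.19 to 0.056.

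Replicate numbers did not pair the samples: the correlations of deviations of same-numbered libraries were -0.06, 0.08, 0.34, 0.12 and -0.22. With the replicate block over all 10 libraries, edgeR called 0 genes, and 1047 passed the unadjusted threshold.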

Other observations

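Slc7a11, the cystine transporter that ATF4 induces, was named here after its values were seen. It was at 1.96, 1.77, 2.53, 15.1 and 4.76 CPM in control replicates 1 to 5 and 4.32, 1.83, 2.78, 62.4 and 1.40 CPM in DMM replicates 1 to 5. DMM replicate 4 and control replicate 4 stood above all others, and these are also the libraries with the highest neutrophil marker sums, 97.1 and 108 CPM. The larger of these sums went with the lower Slc7a11, and DMM replicate 4 is also the library tilted by base composition. The part of either in these values was not tested. The log2 fold change of Slc7a11 was 1.48 over all 10 libraries and -1.02 without DMM replicate 4 (adjusted p = 0.591 and 0.430, edgeR).

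Hspd1, the matrix chaperonin, was also named after its values were seen. It had an adjusted p of 0.0207 over the 8 libraries (edgeR) with a log2 fold change of 0.48, under the fold threshold. Hspd1 was at 196, 202, 292, 190 and 185 CPM in control and 199, 274, 257, 266 and 285 CPM in DMM replicates 1 to 5. The libraries outside that set go the other way: control replicate 3 was the highest of all, and DMM replicate 1 lay among the other controls.

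The results are limited by 5 mice a group, by libraries that stand apart, and by mRNA alone, which does not show ATF4 protein or eIF2 phosphorylation. No unobstructed kidney was compared, so whether obstruction had already raised these genes was not tested.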
